A study of Homo sapiens with 8 samples.

Results

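Long non-coding RNAs (lncRNAs) that A549 cells express were chosen by their annotation and by their read counts summed over all libraries. A gene was taken if GENCODE release 44 classes it as lncRNA and if its counts summed over all 8 libraries reached 80. The hosts of small nucleolar RNAs whose symbols begin with SNHG, GAS5, ZFAS1, the RNAs of RMRP, RPPH1 and TERC, and the region from 100.7 to 101.1 Mb of chromosome 14 were left out. This kept 59 of the 14262 lncRNA genes in a table of 58302 genes. A further 18 lncRNA genes had enough counts and fell under the exclusions. The same filter on the sum was used for every gene tested, without regard to the groups. Each of the 59 was thus among the 5284 genes tested. A gene with few counts could still reach the limit mainly through the group where it was higher. LINC01234 had 28, 17, 19 and 9 counts in the siCTRL libraries described below and 4, 3, 4 and 2 in the siAPEX1 libraries. LUCAT1 had 5, 8, 5 and 9 against 15, 14, 6 and 20. Just inside the limit lay LINC02615 and WAC-AS1 with 80 counts each and LINC00467 with 81, and just outside BAALC-AS1 with 79, LINC00173 with 77 and MINCR with 75.

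A549 is an established human cell line from a lung adenocarcinoma. Cells were transfected with a scramble control siRNA (siCTRL, 4 libraries) or with an siRNA against APEX1 (siAPEX1, 4 libraries), the gene of the DNA repair endonuclease APE1, and the study calls its replicates biological. Nothing in the labels says that the libraries of a group came from separate cultures, so p-values measure the spread between these libraries. Total RNA was sequenced with a kit for small RNA whose protocol had been changed to include the primary transcripts of miRNAs. The question for these genes is which lncRNAs differ in abundance between the transfections. APEX1 had 51, 61, 64 and 47 counts in the libraries labelled siCTRL and 21150, 19470, 27916 and 20767 in those labelled siAPEX1. The count of the targeted gene was higher in every library labelled siAPEX1, against the label of silenced cells, so each direction below is that of the libraries as labelled. Counts per gene do not tell reads of the APEX1 transcript from reads of the transfected siRNA, which carries a stretch of its sequence, and their parts were not tested. Gene counts ranged from 1348386 to 1949886 per library, and every library labelled siAPEX1 was smaller than every library labelled siCTRL. All 9 markers of A549 had counts. Their summed level overlapped between the groups, at 1523 to 1678 CPM (counts scaled to a common library size by the TMM factors, as everywhere below) in the siCTRL libraries and 1466 to 1615 in the siAPEX1 libraries. Scaled by library size alone it was 1690 to 1904 and 1290 to 1419, without overlap, and the part of these markers in the results was not tested. The sum covers markers that moved differently. In counts before scaling, KRT18 had 412 to 621 in the siCTRL libraries and 102 to 154 in the siAPEX1 libraries. KRT8 had 116 to 127 and 31 to 50, while AKR1B10 had 203 to 308 and 266 to 334. Relative to the size of its library, AKR1B10 was higher in every siAPEX1 library than in every siCTRL library. The 12 markers of other cell types summed to 3 to 18 counts per library, with CD3E and PECAM1 at 0 in all 8. In such bulk RNA, fewer cells of a type and less RNA per cell cannot be told apart.

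lncRNAs are long transcripts that encode no known protein. Some build or organise nuclear structures, as NEAT1 does for paraspeckles, some silence genes near their own locus, as KCNQ1OT1 does, and some act in the cytoplasm by binding proteins or miRNAs, as NORAD does with Pumilio proteins. Others are known mainly as the host transcripts of miRNAs or small nucleolar RNAs, or lie over genes of RNA polymerase III, among them tRNA genes. A tRNA gene carries its promoter inside its own sequence, as an A box and a B box.

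The position of the 59 genes against the nuclear tRNA genes of RefSeq sets 12 of them apart. Each of the 12 holds a whole tRNA gene in an exon on its own strand, and by total counts they took ranks 3 to 14 of the 59, behind MALAT1 and NEAT1. This grouping was made after the counts had been seen. GENCODE 44 holds no nuclear tRNA gene as a gene of its own, so the counts per gene do not tell reads of the tRNA from reads of the lncRNA, and their parts were not tested. The tRNA genes are shown because the result below rests on what these lncRNA rows can contain. They are read from GRCh38 at the RefSeq positions, 5′ to 3′, and capitals mark the match to the B box, GTTCNANNC. It was searched on both strands and matched on 1 strand in 390 of the 443 nuclear tRNA genes of RefSeq, and that strand was taken as the strand of the tRNA gene.
TRR-TCT1-1 in ENSG00000260464 (chr1:93847573-93847657, plus strand): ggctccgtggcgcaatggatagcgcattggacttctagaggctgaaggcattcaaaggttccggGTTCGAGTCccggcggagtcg
TRK-CTT3-1 in ENSG00000261889 (chr16:3157405-3157477, minus strand): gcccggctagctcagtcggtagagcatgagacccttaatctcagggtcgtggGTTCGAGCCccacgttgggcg
TRR-TCG1-1 in POLG-DT (chr15:89335073-89335145, plus strand): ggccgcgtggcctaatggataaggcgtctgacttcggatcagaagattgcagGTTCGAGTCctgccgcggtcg
TRW-CCA1-1 in LINC00324 (chr17:8220869-8220940, minus strand): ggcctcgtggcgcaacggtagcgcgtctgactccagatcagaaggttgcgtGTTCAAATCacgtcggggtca
TRH-GTG1-7 in ENSG00000259932 (chr15:45198606-45198677, minus strand): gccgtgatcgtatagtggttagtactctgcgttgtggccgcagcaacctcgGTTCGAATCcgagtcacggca
TRE-TTC4-1 in LINC01783 (chr1:16535279-16535350, minus strand): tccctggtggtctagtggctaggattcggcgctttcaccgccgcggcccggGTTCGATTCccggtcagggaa
TRE-TTC3-1 in ENSG00000228549 (chr1:16872583-16872654, plus strand): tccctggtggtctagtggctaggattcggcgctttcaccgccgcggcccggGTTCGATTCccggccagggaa
TRR-ACG2-1 in LIMD1-AS1 (chr3:45688999-45689071, minus strand): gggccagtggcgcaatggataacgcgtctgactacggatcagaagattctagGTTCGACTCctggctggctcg
TRQ-TTG2-1 in ZBED9-AS1 (chr6:28589379-28589450, plus strand): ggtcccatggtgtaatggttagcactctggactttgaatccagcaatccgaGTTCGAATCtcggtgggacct

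Of the 59 lncRNAs, 22 were higher and 3 were lower in the siAPEX1 libraries at an adjusted p of at most 0.05 (edgeR's quasi-likelihood test, Benjamini-Hochberg adjustment over 5284 genes), which is 37.3% and 5.08% of them. Over all genes tested, 15.9% were called higher and 15.5% lower. With a log2 fold change of at least 1 in size as well, 12 were higher and 3 lower, beside 3.48% and 5.28% of all genes. The median log2 fold change of the 59 was 0.45, and that of all genes tested −0.01. With library sizes alone as the scaling the split was 14 higher and 8 lower, the median of the 59 was 0.11 and that of all genes −0.34, since such a change of scaling moves every gene by nearly the same amount. The normalised levels of the siAPEX1 libraries lay wholly above those of the siCTRL libraries for 21 of the 59 and wholly below for 3, beside 14.1% and 14.4% of all genes tested. The other 35 overlapped, 3 of the called ones among them. Depth differed with the call. The median total was 285 counts for the called members and 119.5 for the others, whose median standard error was 0.27 on the log2 scale. The log2 fold changes of the 34 that were not called ran from −0.46 to 0.65. Not all of them were low in counts, since MALAT1, ENSG00000228549, LIMD1-AS1 and ZBED9-AS1 were among them with 87623, 4956, 1184 and 714.

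**Figure D1:**
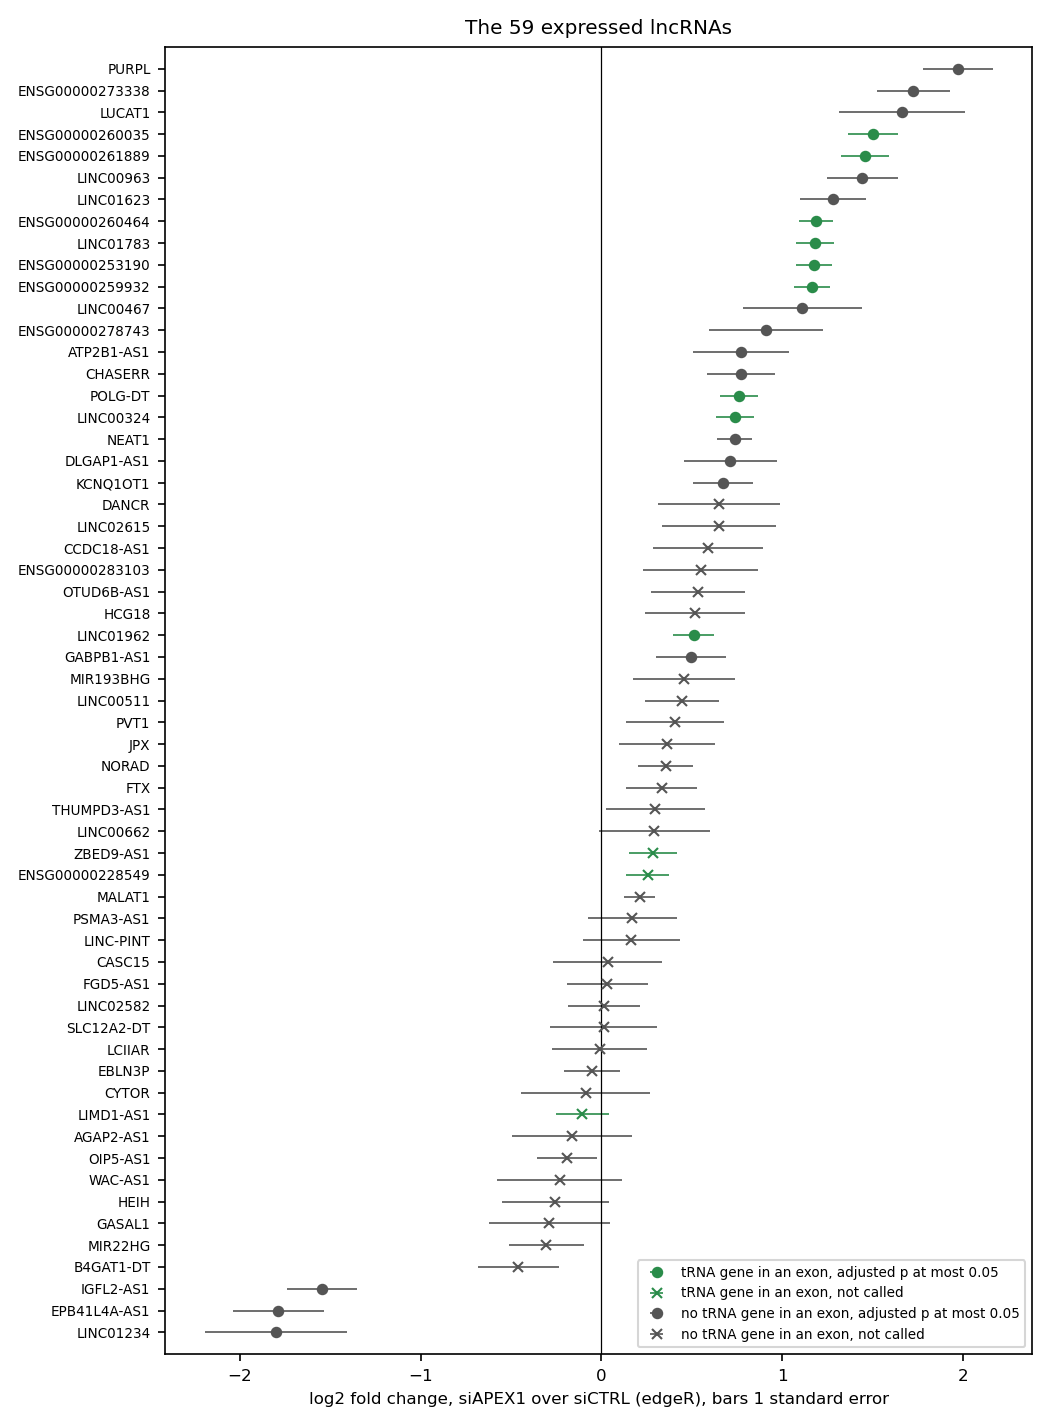
Log2 fold change (x axis, siAPEX1 over siCTRL, edgeR) of each of the 59 lncRNAs (y axis), ordered by size, with bars of 1 standard error. Green marks the 12 with a tRNA gene in an exon, 9 of which were called, all to the right of 0. The 3 called to the left of 0 are IGFL2-AS1, EPB41L4A-AS1 and LINC01234.

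Together the 59 lncRNAs held 0.962% ± 0.0926 (SD, n = 4) of the counts in the siCTRL libraries and 0.988% ± 0.0508 in the siAPEX1 libraries. MALAT1 alone held 71.8% ± 2.58 of their counts in the former and 64.3% ± 1.58 in the latter. Without MALAT1 the share was 0.261% to 0.279% in the siCTRL libraries and 0.321% to 0.387% in the siAPEX1 libraries, with no overlap. The 12 genes with a tRNA gene in an exon held 0.178% ± 0.00564 and 0.251% ± 0.0282, and the remaining 46 held 0.0923% ± 0.00714 and 0.103% ± 0.0039. The 46 overlapped between the groups and the 12 did not. These are shares of counts as deposited, without the TMM factors that scale the CPM below.

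**Figure D2:**
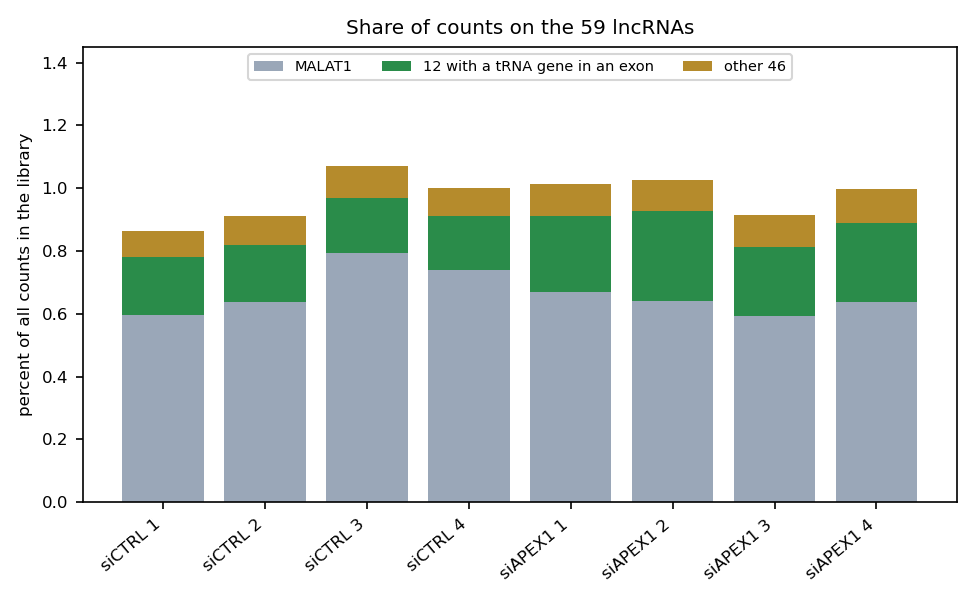
Percent of all gene counts in each library (y axis) that lay on the 59 lncRNAs, stacked as MALAT1, the 12 with a tRNA gene in an exon and the other 46, for siCTRL 1 to 4 and siAPEX1 1 to 4 (x axis). The stacks reach 0.865% to 1.07% in siCTRL and 0.914% to 1.03% in siAPEX1, while the green part is larger in each siAPEX1 library.

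Of the 12 lncRNAs with a tRNA gene in an exon, 9 rose and 0 fell by edgeR's test (at an unadjusted p below 0.05, 11 and 0, and by DESeq2, 9 and 0), with a median log2 fold change of 0.96 over the 12, while of the other 47 lncRNAs 13 rose and 3 fell, with a median of 0.36. That is 75% of the 12 higher, and 27.7% of the 47 higher and 6.38% lower, beside 15.9% and 15.5% of all genes tested. Depth differed between the 12 and the 47 as well. The 12 had 448 to 4956 counts in all, while the 47, apart from MALAT1 and NEAT1, had at most 370. Low counts limit which genes can be called, and the part of depth in this contrast was not tested. The difference between the 12 and the 47 was not tested either. ENSG00000260464 (chr1:93847174-93848939, plus strand), over the intron-containing gene of an arginine tRNA shown above, had CPM of 189.8, 227, 194 and 173 in the siCTRL libraries and 404, 489, 439 and 454 in the siAPEX1 libraries. The groups were well apart, and its log2 fold change was 1.19 (SE 0.10, adjusted p = 5.32e-14). POLG-DT (chr15:89335053-89336161, plus strand), which is transcribed away from the gene of the mitochondrial DNA polymerase, had 212, 243, 299 and 238 CPM against 424, 512, 339 and 409.5. Its levels did not overlap either, with a log2 fold change of 0.76 (SE 0.10, adjusted p = 1.01e-07). ENSG00000261889 (chr16:3156736-3157483, minus strand), with a lysine tRNA gene, had 31.5, 35.0, 49.8 and 42.2 CPM against 102, 141, 89.6 and 106. Its rise was 1.46 on the log2 scale (SE 0.13, adjusted p = 1.8e-12).

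Both histidine tRNA lncRNAs lie next to each other on chromosome 15, and their tRNA genes TRH-GTG1-7 and TRH-GTG1-8 differ at 0 positions and are 2 of 9 identical copies in RefSeq. Reads that fit several copies equally well cannot be placed at 1 of them, so the counts of these genes are uncertain. ENSG00000259932 (chr15:45198517-45199139, minus strand) had 84.1, 94.2, 82.3 and 76.3 CPM in the siCTRL libraries and 185, 190.0, 178 and 204 in the siAPEX1 libraries, a log2 fold change of 1.17 (SE 0.10, adjusted p = 2.65e-13). ENSG00000260035 (chr15:45200325-45200632, minus strand) had 21.1, 17, 19 and 21.1 against 54.8, 53.3, 52.9 and 60.6, a log2 fold change of 1.5 (SE 0.14, adjusted p = 4.22e-12). In each of these 2 histidine tRNA lncRNAs every siAPEX1 library stood above every siCTRL library.

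The glutamate pair gave different values from nearly the same tRNA sequence. TRE-TTC4-1 and TRE-TTC3-1 differ by T65C, counted from 1 at the 5′ end of the tRNA gene with the base of TRE-TTC4-1 first. LINC01783 (chr1:16533886-16535649, minus strand), which holds TRE-TTC4-1, had 102, 129, 96.4 and 114 CPM in the siCTRL libraries and 249, 295, 244 and 212 in the siAPEX1 libraries, with a log2 fold change of 1.18 (SE 0.10, adjusted p = 9.5e-13). ENSG00000228549 (chr1:16870945-16883659, plus strand), which holds TRE-TTC3-1, had 499, 303, 279 and 299 against 381, 472, 353 and 441, with a log2 fold change of 0.26 (SE 0.12, adjusted p = 0.0969). Its siCTRL replicate 1 was the highest of all 8 libraries, and without it the gene was called higher, at 0.49 (adjusted p = 0.000187). It was also called without siAPEX1 replicate 3, at 0.32 (adjusted p = 0.0399). RefSeq holds 2 identical copies of TRE-TTC4-1 and 1 of TRE-TTC3-1, and the difference between the 2 fold changes was not tested.

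The remaining lncRNAs of this kind covered a wide range. ENSG00000253190 (chr8:66112667-66126632, plus strand), over a tyrosine tRNA gene, had 205, 265, 223 and 253 CPM in the siCTRL libraries and 478, 623, 475 and 565 in the siAPEX1 libraries, a log2 fold change of 1.18 (SE 0.10, adjusted p = 2.06e-13). LINC00324 (chr17:8220624-8224043, minus strand), with the tryptophan tRNA gene above and a proline one, had 78.2, 106, 109 and 105 against 162, 190.0, 147 and 167, a log2 fold change of 0.74 (SE 0.11, adjusted p = 2.58e-07). LINC01962, with a valine tRNA gene on its strand and a leucine one on the other, had 61.9, 63.9, 59.3 and 60.1 against 78.2, 105, 81.1 and 85.5, a log2 fold change of 0.51 (SE 0.11, adjusted p = 0.000351). These 3 did not overlap between the groups, but LINC01962 was not called with library sizes alone (0.17, adjusted p = 0.227). LIMD1-AS1, with an arginine tRNA gene of another anticodon, had 85.0, 96.1, 98.6 and 82.8 CPM against 68.5, 135, 50.8 and 85.5, a log2 fold change of −0.11 (SE 0.15, adjusted p = 0.632). Its siAPEX1 libraries held both the highest and the lowest of the 8 values. Without siAPEX1 replicate 2 it was called lower, at −0.42 (adjusted p = 0.0122), and so it was with library sizes alone, at −0.44 (adjusted p = 0.00813). ZBED9-AS1, with a glutamine tRNA gene, overlapped at 48.9 ± 10.02 and 59.8 ± 6.05 CPM (SD, n = 4), with a log2 fold change of 0.29 (SE 0.13, adjusted p = 0.0921). Without siCTRL replicate 2 it was called higher, at 0.43 (adjusted p = 0.0113).

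Among the other genes tested, 2 protein-coding genes held a whole tRNA gene in an exon. CTC1, which encodes a telomere maintenance protein and lies beside LINC00324 in a cluster of tRNA genes, holds 3 of them on its own strand. It had 1151, 1585, 1130.0 and 1069 CPM in the siCTRL libraries and 2899, 4199.8, 3058 and 2693 in the siAPEX1 libraries, a log2 fold change of 1.38 (SE 0.11, adjusted p = 3.35e-14). MAP1LC3B, an autophagy gene with a tRNA gene on the opposite strand, had a log2 fold change of −0.19 (SE 0.21, adjusted p = 0.544).

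**Figure D3:**
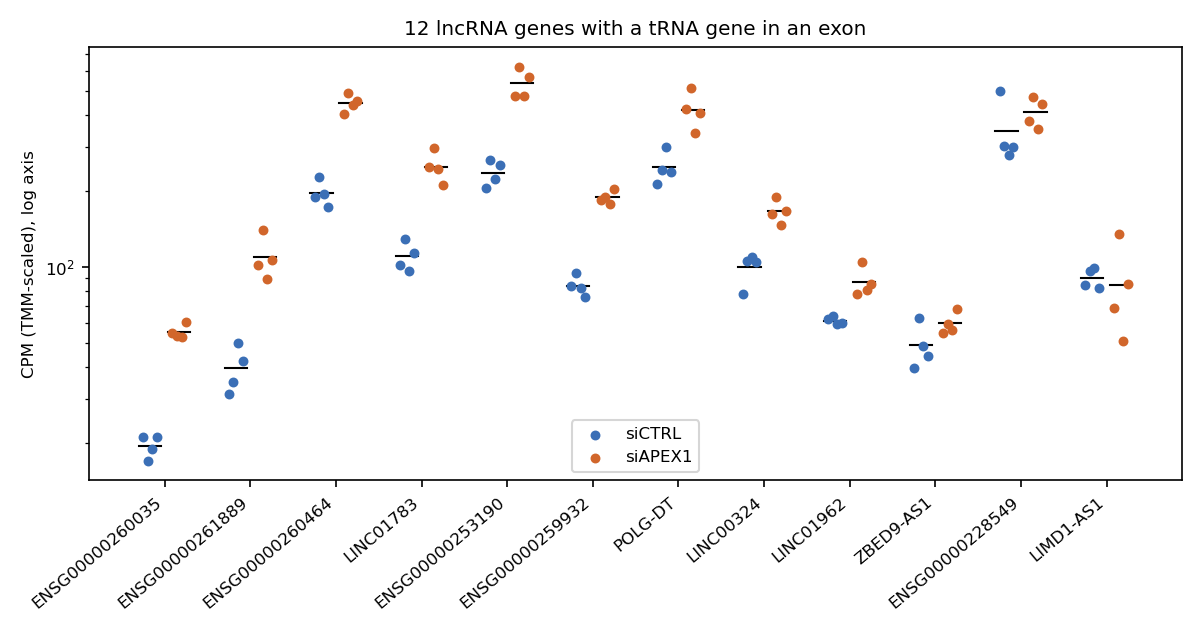
CPM (y axis, log scale, TMM-scaled) of the 12 lncRNAs with a tRNA gene in an exon (x axis, ordered by log2 fold change), a point for each siCTRL (blue) and siAPEX1 (orange) library and a black line at each group's mean. The 9 leftmost do not overlap between the groups, and the high blue point of ENSG00000228549 is siCTRL replicate 1 at 499 CPM.

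The lncRNAs of nuclear structure and chromatin were listed with 13 genes, of which 6 are among the 59, with a median log2 fold change of 0.35. A seventh, TUG1, had 218 counts but is classed as protein-coding by GENCODE 44, and it was not called, at 0.04 (SE 0.23, adjusted p = 0.921). Of the 6, NEAT1 and KCNQ1OT1 rose, 0 fell by edgeR's test, 0 also at an unadjusted p below 0.05 or by DESeq2, and MALAT1, JPX, FTX and LINC-PINT were not called. The 2 that rose make 33.3% of the 6, beside 15.9% of all genes. NEAT1 (chr11:65422774-65445540, plus strand), the scaffold of paraspeckles and a gene that p53 and hypoxia are known to induce, had 263, 302, 375 and 302 CPM in the siCTRL libraries and 485, 530.3, 518 and 535 in the siAPEX1 libraries. The lowest siAPEX1 library stood above the highest siCTRL library, and the log2 fold change was 0.74 (SE 0.10, adjusted p = 2.23e-08). KCNQ1OT1 (chr11:2597308-2700003, minus strand), the antisense RNA that silences imprinted genes of its domain, had 16.2, 22.3, 25.8 and 21.6 CPM against 27.4, 29.4, 40.9 and 38.9, a log2 fold change of 0.67 (SE 0.17, adjusted p = 0.00138). With library sizes alone it was not called (0.33, adjusted p = 0.0994).

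MALAT1 (chr11:65497640-65508073, plus strand), the nuclear speckle RNA next to NEAT1, had by far the most counts. Its CPM were 5263, 5797, 6997 and 6573 in the siCTRL libraries and 7272, 7277, 6769 and 7218 in the siAPEX1 libraries, which overlap through siAPEX1 replicate 3. The log2 fold change was 0.21 (SE 0.09, adjusted p = 0.0525). It was called higher without siCTRL replicate 3, at 0.28 (adjusted p = 0.0241), without siCTRL replicate 4, at 0.25 (adjusted p = 0.0415), and with factors from protein-coding genes, at 0.26 (adjusted p = 0.0188), and its sign turned with library sizes alone, at −0.13. Per kilobase of exon, the mean level over the 8 libraries was 637 CPM for MALAT1 and 18.2 for NEAT1. KCNQ1OT1 had 0.3 CPM per kilobase, rank 57 of the 59, from 356 counts and 92625 bases of exon. Counts per gene do not show where in it the reads lay.

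Of the 14 symbols listed for p53 and the response to DNA damage, 5 are among the 59, with a median log2 fold change of 0.41. DINOL, TP53COR1, DDSR1 and LINC01021 matched no gene of the counts under that symbol. PURPL and NEAT1 rose (2 of 5, beside 15.9% of all genes) while NORAD, PVT1 and LINC-PINT were not called. PURPL (chr5:27217714-27497871, plus strand), a p53 target that in turn limits p53, showed the highest log2 fold change of the 59 lncRNAs. It had 8.85, 9.94, 8.59 and 7.58 CPM in the siCTRL libraries and 34.7, 28.6, 31.0 and 44.3 in the siAPEX1 libraries. The groups were far apart, and the mean rose from 8.74 ± 0.972 to 34.7 ± 6.89 CPM, a log2 fold change of 1.97 (SE 0.19, adjusted p = 1.62e-11). NORAD (chr20:36045618-36051018, minus strand), which holds Pumilio proteins and guards chromosome stability, had 22.6, 23.7, 25.8 and 26.5 CPM against 28.2, 29.4, 31.0 and 37.3. These did not overlap, but the log2 fold change of 0.36 missed the threshold (SE 0.15, adjusted p = 0.0722) except with factors from protein-coding genes, at 0.40 (adjusted p = 0.0418). PVT1, the neighbour of MYC, likewise did not overlap, at 6.9 ± 1.13 and 9.2 ± 0.791 CPM (SD, n = 4), with a log2 fold change of 0.41 (SE 0.27, adjusted p = 0.281).

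The list for oxidative stress and hypoxia had 10 lncRNAs, of which LUCAT1 and NEAT1 are among the 59, and both rose, beside 15.9% of all genes. LUCAT1 (chr5:91054834-91314547, minus strand), a transcript that NRF2 is known to induce in airway cells, had 2.46, 3.79, 2.26 and 4.87 CPM in the siCTRL libraries and 12.1, 11.1, 4.23 and 15.5 in the siAPEX1 libraries. The groups overlap through siAPEX1 replicate 3, and with only 82 counts in all the log2 fold change of 1.66 carried a standard error of 0.35 (adjusted p = 0.000203).

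The promoters of LUCAT1 and PURPL are shown as those of the stress-linked lncRNAs with the highest fold changes. RefSeq (GRCh38.p14) gives 250 bases before and 50 after the start for 41 of the 59 genes. Its start lies 145 bases inside the counted gene for LUCAT1, but 254578 bases inside it for PURPL, so that the PURPL window is an internal start and not the 5′ end of the gene as counted. In LUCAT1 the capitals mark the only match to the core of the antioxidant response element, TGACNNNGC, on the other strand. The same letters include a TGAGTCA site of the AP-1 kind.
LUCAT1 (chr5:91314353-91314652, minus strand): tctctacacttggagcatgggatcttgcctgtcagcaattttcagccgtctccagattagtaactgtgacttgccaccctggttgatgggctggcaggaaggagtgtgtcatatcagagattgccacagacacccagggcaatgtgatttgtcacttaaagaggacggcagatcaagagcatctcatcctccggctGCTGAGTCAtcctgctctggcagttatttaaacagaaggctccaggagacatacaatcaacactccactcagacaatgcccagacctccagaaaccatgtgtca
In PURPL the capitals mark the only match to CNNGNNNNNNCATG, a relaxed form of the p53 response element core.
PURPL (chr5:27472042-27472341, plus strand): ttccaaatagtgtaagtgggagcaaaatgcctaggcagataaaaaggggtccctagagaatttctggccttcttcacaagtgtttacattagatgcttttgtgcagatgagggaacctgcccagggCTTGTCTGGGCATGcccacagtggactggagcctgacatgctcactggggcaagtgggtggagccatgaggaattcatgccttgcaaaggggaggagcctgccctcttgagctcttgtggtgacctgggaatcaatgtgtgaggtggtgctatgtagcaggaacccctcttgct
Searched on both strands, TGACNNNGC was found in 10 of the 41 promoters (24.4%) and in 13.6% of 27305 RefSeq promoters of the same length. Besides LUCAT1, the 10 were those of LINC01623, LINC00324, DLGAP1-AS1 and GABPB1-AS1, which rose, and of LINC01234, which fell. The rest were those of MALAT1, NORAD, HCG18 and PSMA3-AS1, which were not called. The relaxed p53 core was in 4 of the 41 (PURPL, CYTOR, DANCR and AGAP2-AS1) and in 9.82% of all promoters, and its strict form CATGNNNNNNCATG in 0 of the 41 and 0.392% of all. Matches describe these letters in these windows only.

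Of 23 lncRNAs listed for lung cancer and proliferation, 7 are among the 59, with a median log2 fold change of 0.45. LINC00963 and LUCAT1 rose (28.6% of the 7, beside 15.9% of all genes), and PVT1, CASC15, CYTOR, DANCR and LINC00511 were not called. By edgeR's test 0 fell, beside 15.5% of all genes. At an unadjusted p below 0.05 it was 0 as well, beside 1073 of the 5284 genes, and by DESeq2 0, beside 525. LINC00963 (chr9:129476946-129513687, plus strand) had 9.34, 8.52, 9.95 and 8.66 CPM in the siCTRL libraries and 25.0, 21.5, 25.4 and 28.0 in the siAPEX1 libraries. Both groups were tight and did not overlap, with a log2 fold change of 1.44 (SE 0.20, adjusted p = 9.09e-08). LINC00511 overlapped at 13.7 ± 2.56 and 18.5 ± 3.83 CPM (SD, n = 4) and had a log2 fold change of 0.45 (SE 0.20, adjusted p = 0.0932), which was called without siCTRL replicate 4 (0.56, adjusted p = 0.0458) or siAPEX1 replicate 1 (0.57, adjusted p = 0.0419). CASC15, at 6.97 ± 0.701 and 7.13 ± 2.43 CPM, and CYTOR, at 6.22 ± 3.15 and 5.85 ± 2.46, lay close to a log2 fold change of 0, with standard errors of 0.30 and 0.36.

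Of 8 lncRNAs listed as cytoplasmic RNAs that bind miRNAs or RNA-binding proteins, 5 are among the 59. TUG1 again had counts without being classed as lncRNA. Where in the cell these RNAs lay was not measured. Of the 5, with a median log2 fold change of −0.09, 0 rose by edgeR's test (1 at an unadjusted p below 0.05, 0 by DESeq2), EPB41L4A-AS1 fell (1 of 5, near the 15.5% of all genes), and NORAD, OIP5-AS1, DANCR and CYTOR were not called. EPB41L4A-AS1 (chr5:112160526-112164818, plus strand), a host of a small nucleolar RNA, had 26.1, 21.3, 21.7 and 16.2 CPM in the siCTRL libraries and 4.84, 9.54, 6.35 and 3.89 in the siAPEX1 libraries. Every siAPEX1 library was below every siCTRL library, and it fell by 1.79 on the log2 scale (SE 0.25, adjusted p = 1.58e-07). OIP5-AS1, known as Cyrano and as a binder of miR-7, overlapped at 28.8 ± 4.76 and 25.4 ± 4.96 CPM (SD, n = 4), with a log2 fold change of −0.19 (SE 0.17, adjusted p = 0.417). With library sizes alone it was called lower, at −0.53 (adjusted p = 0.00814).

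EPB41L4A-AS1 was 1 of 3 lncRNAs that fell. IGFL2-AS1 (chr19:46189029-46203160, minus strand), antisense to a gene of the insulin growth factor-like family, had 28.5, 33.1, 29.9 and 30.3 CPM in the siCTRL libraries and 14.5, 10.3, 8.46 and 8.55 in the siAPEX1 libraries. The groups did not overlap, and it fell by 1.55 (SE 0.20, adjusted p = 1.35e-08). LINC01234 (chr12:113583886-113773726, minus strand) had 13.8, 8.05, 8.59 and 4.87 CPM against 3.23, 2.39, 2.82 and 1.55, and fell by 1.80 (SE 0.39, adjusted p = 0.000339). Its groups did not overlap, but with 86 counts in all its error was the largest of the 3. All 3 kept their call in every alternative in which they were tested.

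**Figure D4:**
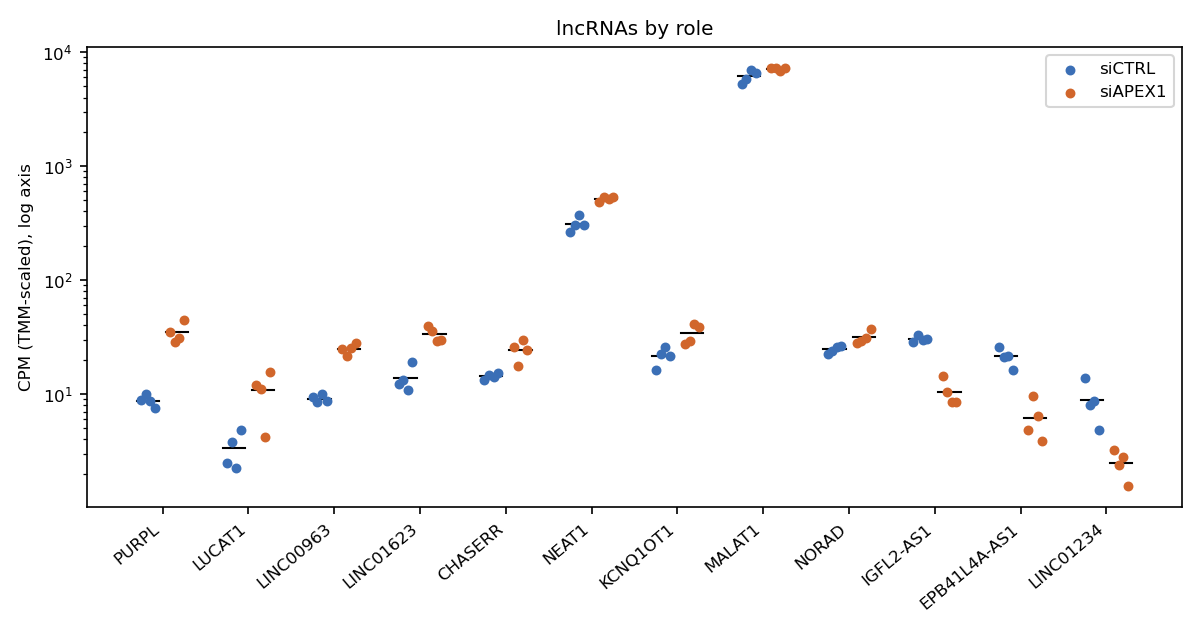
CPM (y axis, log scale, TMM-scaled) of 12 lncRNAs named by role (x axis), a point for each siCTRL (blue) and siAPEX1 (orange) library and a black line at each group's mean. PURPL rises from about 8.74 to 34.7 CPM, while IGFL2-AS1, EPB41L4A-AS1 and LINC01234 are lower in each siAPEX1 library, and the points of LUCAT1 and MALAT1 overlap.

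Among the further lncRNAs past both thresholds, ENSG00000273338 (chr1:78004346-78004554, minus strand), a single short gene of 209 bases with no tRNA gene in it, had 8.36, 8.52, 7.24 and 11.4 CPM in the siCTRL libraries and 22.6, 28.6, 30.3 and 35.0 in the siAPEX1 libraries. It did not overlap and had a log2 fold change of 1.73 (SE 0.20, adjusted p = 1.83e-09). LINC01623 (chr6:28859625-28864630, minus strand), which lies among tRNA genes and holds an alanine one in an intron, had 12.3, 13.3, 10.9 and 18.9 CPM against 39.5, 35.8, 28.9 and 29.5. Its log2 fold change was 1.28 (SE 0.18, adjusted p = 1.93e-07), whereas B4GAT1-DT, which holds a serine tRNA gene in an intron, was not called at −0.46 (SE 0.22, adjusted p = 0.113) and was called lower with library sizes alone, at −0.80 (adjusted p = 0.00276). LINC00467 had 5.9, 4.26, 3.62 and 2.71 CPM against 8.87, 7.16, 6.35 and 14, a log2 fold change of 1.11 (SE 0.33, adjusted p = 0.00771). It lost its call without siAPEX1 replicate 4, at 0.83 (adjusted p = 0.0858), and with library sizes alone, at 0.78 (adjusted p = 0.0527).

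By the form of the symbol, 7 of the 9 lncRNAs named only by an identifier rose, 6 of them past both thresholds, and 6 of the 9 hold a tRNA gene in an exon. Of 12 LINC genes 6 rose and 1 fell, of 15 antisense genes 3 rose and 2 fell, and of 3 divergent genes 1 rose. Beside 15.9% and 15.5% of all genes, the antisense genes with 20% higher and 13.3% lower lay near the background. The median log2 fold change was 1.18 for the first, 0.58 for the LINC genes and 0.17 for the antisense genes. The antisense genes that rose, ATP2B1-AS1, DLGAP1-AS1 and GABPB1-AS1, lost their calls in several alternatives, and by DESeq2 0 of the 15 rose. ATP2B1-AS1 had 7.37, 7.57, 4.07 and 9.2 CPM against 12.9, 10.3, 12 and 12.4 (log2 fold change 0.77, SE 0.26, adjusted p = 0.021) and kept its call in 11 of 16 alternatives, with 0.57 (adjusted p = 0.106) without siCTRL replicate 3 and 0.74 (adjusted p = 0.0514) without siAPEX1 replicate 1. DLGAP1-AS1 (0.71, SE 0.26, adjusted p = 0.028) kept it in 9 and lost it without siCTRL replicate 1 or 3 or siAPEX1 replicate 2 or 4, where the adjusted p reached 0.173. GABPB1-AS1 (0.49, SE 0.20, adjusted p = 0.048) kept it in 6 and lost it in 6 of the 8 fits that left out a library, all but those without siCTRL replicate 4 or siAPEX1 replicate 1, at adjusted p of up to 0.174. ENSG00000278743 (0.91, SE 0.32, adjusted p = 0.0232), whose groups overlap, kept it in 10, and without siAPEX1 replicate 3, siCTRL replicate 1 or siCTRL replicate 3 the adjusted p was 0.19, 0.0726 and 0.0637.

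An antisense or divergent lncRNA shares its locus with a protein-coding gene, and 17 of the 59 had such a partner in the table. Only 8 partners had enough counts to be tested, and the other 9 had at most 54 counts in all. Beside ATP2B1-AS1, the calcium pump gene ATP2B1 rose by 0.47 (SE 0.10, adjusted p = 0.000164), a call it lost with library sizes alone (0.13, adjusted p = 0.312). Beside POLG-DT, which rose, POLG was not called, at 8.57 ± 1.47 and 9.36 ± 1.42 CPM (SD, n = 4) with a log2 fold change of 0.12 (SE 0.26, adjusted p = 0.773). LIMD1 rose by 1.06 (SE 0.25, adjusted p = 0.000783) beside LIMD1-AS1, which was not called. SLC12A2, the gene of a sodium, potassium and chloride cotransporter, fell by 0.50 (SE 0.14, adjusted p = 0.00362) beside SLC12A2-DT at 0.01 (SE 0.30, adjusted p = 0.982). WAC rose by 0.51 (SE 0.14, adjusted p = 0.00471) beside WAC-AS1 at −0.23 (SE 0.35, adjusted p = 0.658), and lost the call with library sizes alone (0.17, adjusted p = 0.346). THUMPD3, PSMA3 and B4GAT1 were not called, at 0.65, −0.26 and 0.24. With library sizes alone PSMA3 was called lower, at −0.59 (adjusted p = 0.0189), and THUMPD3 was called higher without siCTRL replicate 2 (0.82, adjusted p = 0.0385) or siAPEX1 replicate 4 (0.80, adjusted p = 0.0379). CHASERR (chr15:92819540-92899701, plus strand), an RNA known to hold down its neighbour CHD2, a chromatin remodeller, had 13.3, 14.7, 14 and 15.2 CPM in the siCTRL libraries and 25.8, 17.5, 29.6 and 24.1 in the siAPEX1 libraries, a log2 fold change of 0.77 (SE 0.19, adjusted p = 0.00113). CHD2 (chr15:92886203-93027996, plus strand) rose as well, by 0.56 (SE 0.14, adjusted p = 0.00106). The bounds of CHASERR and CHD2 overlap on the same strand, and the part of reads from the shared stretch was not tested. Neither CHASERR nor CHD2 was called with library sizes alone, at 0.43 (adjusted p = 0.0586) and 0.23 (adjusted p = 0.187). Counting without strand would mix the reads of overlapping partners, and whether the counts used strand is not given in the sources used here.

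Of the 59 lncRNAs, 9 were hosts of miRNAs, of which 2 rose (NEAT1 and GABPB1-AS1, whose own miRNA genes are listed at 0), near the share of all genes at 22.2% beside 15.9%, and by DESeq2 1 rose. Of the 9, 0 fell by edgeR's test, beside 15.5% of all genes. At an unadjusted p below 0.05 it was 0 as well, beside 1073 of the 5284 genes, and by DESeq2 0, beside 525. Of the 59, 2 were hosts of small nucleolar RNAs, of which 1 fell. In EPB41L4A-AS1 the host and the RNA inside it went opposite ways. SNORA13, which guides pseudouridylation, had 926, 864, 831 and 877 CPM in the siCTRL libraries and 1240.1, 1020.1, 1224 and 1252 in the siAPEX1 libraries, a log2 fold change of 0.44 (SE 0.09, adjusted p = 8.73e-05), while its host fell by 1.79. With library sizes alone its value was 0.10 (adjusted p = 0.372). Over all 155 small nucleolar RNA genes tested, 117 rose and 9 fell. In DANCR, SNORA26 rose by 0.42 (SE 0.09, adjusted p = 0.00014), at 829 ± 38.3 and 1106 ± 71.9 CPM (SD, n = 4), and MIR4449 by 0.30 (SE 0.08, adjusted p = 0.00489), while DANCR itself, at 5.71 ± 2.44 and 9.01 ± 5.19 CPM, was not called (0.65, SE 0.34, adjusted p = 0.14). SNORA26 was not called with library sizes alone (0.08, adjusted p = 0.485), and the sign of MIR4449 turned there, at −0.04. DANCR was called without siAPEX1 replicate 1, at 0.89 (adjusted p = 0.0424).

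FTX, a regulator of X inactivation that hosts a cluster of miRNAs, had 12.3, 19.9, 24.0 and 15.7 CPM against 19.4, 19.1, 29.6 and 22.5, which overlap (log2 fold change 0.33, SE 0.20, adjusted p = 0.205). Within it MIR374A fell by 0.89 (SE 0.22, adjusted p = 0.00177), at 20.6 ± 3.69 and 11.2 ± 4.53 CPM (SD, n = 4), whereas MIR374B was not called at −0.07 (SE 0.10, adjusted p = 0.615) nor MIR421 at −0.55 (SE 0.25, adjusted p = 0.095). MIR421 was called lower without siCTRL replicate 3, at −0.68 (adjusted p = 0.046). With library sizes alone both were called lower, MIR374B at −0.41 (adjusted p = 0.000367) and MIR421 at −0.89 (adjusted p = 0.00307). MIR29A inside LINC-PINT was not called at −0.24 (SE 0.12, adjusted p = 0.136), but was lower without siCTRL replicate 4 (−0.33, adjusted p = 0.0471) or siAPEX1 replicate 3 (−0.35, adjusted p = 0.0314), with every gene of at least 1 count (−0.34, adjusted p = 0.0111) and with library sizes alone (−0.58, adjusted p = 4.17e-05). In MIR193BHG, at 6.74 ± 1.3 and 9.24 ± 2.72 CPM, MIR193B had 0.21 (SE 0.10, adjusted p = 0.104), which was called without siCTRL replicate 1 (0.28, adjusted p = 0.0373) or siAPEX1 replicate 1 (0.30, adjusted p = 0.0254), and MIR365A had 0.01 (SE 0.26, adjusted p = 0.986). MIR22HG was not called at −0.31 (SE 0.21, adjusted p = 0.278), but was lower with library sizes alone, at −0.64 (adjusted p = 0.00862), and MIR22 within its exon is listed at 0 in all 8 libraries. SNORA13, SNORA26, MIR4449, MIR421 and MIR374B also lie in host exons of GENCODE 44 and had counts. The study assigned reads to genes with the gene count mode of STAR. How that mode treated a read that fits both a host and the RNA inside it is not described there.

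**Figure D5:**
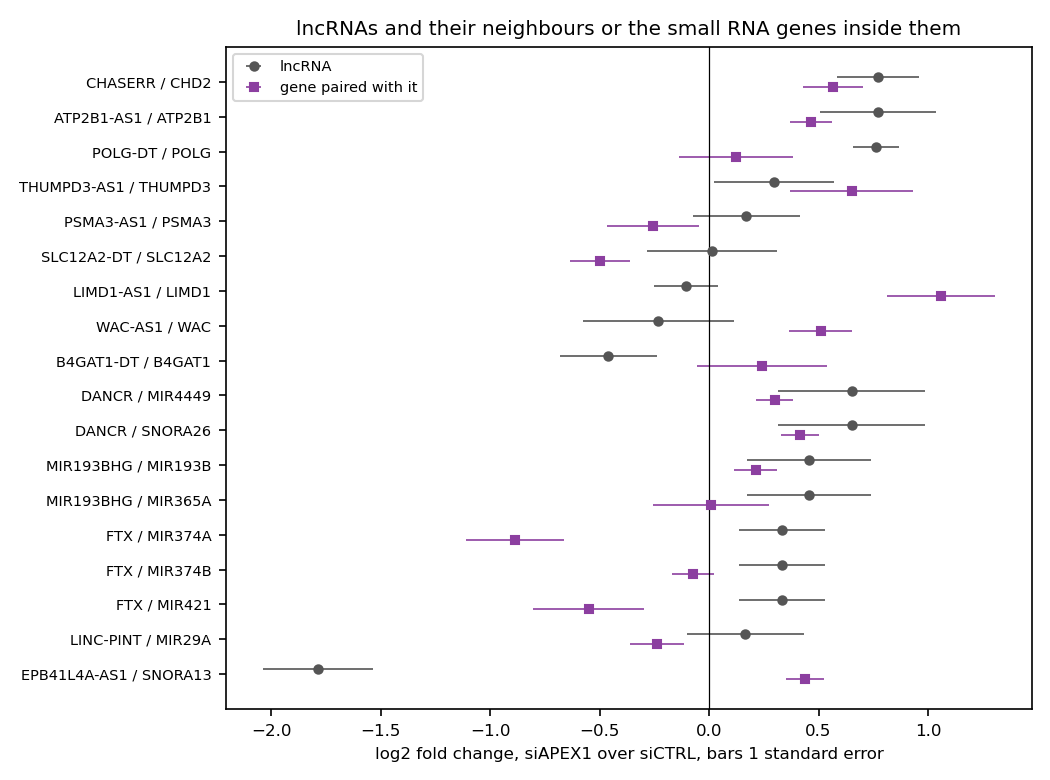
Log2 fold change (x axis, siAPEX1 over siCTRL, bars of 1 standard error) of lncRNAs (grey circles) and of the neighbouring or enclosed gene tested beside each (purple squares), 1 pair per line of the y axis. EPB41L4A-AS1 and SNORA13 lie farthest apart, at −1.79 and 0.44, and CHASERR and CHD2 both lie to the right of 0.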

How the data were processed

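RNA-seq libraries of A549 cells given siCTRL or siAPEX1 (4 each) were analysed. The authors trimmed the reads, aligned them to GRCh38 with STAR (2.5.3a per the submitters' processing notes, which also name CASAVA and DESeq2) and deposited raw counts per gene, whole numbers without normalization. The annotation release is not given in the sources used here. Of 58302 genes, 57532 matched GENCODE 44 by identifier, and coordinates are from GENCODE on GRCh38. Columns were matched to samples by condition and replicate number.

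Genes with at least 80 counts over the 8 libraries (5284) were tested with edgeR 4.0.16 in R 4.3.3 (TMM factors, quasi-likelihood test, Benjamini-Hochberg adjustment over all genes tested). CPM are scaled by the TMM factors, and a standard error is the log2 fold change over the square root of the F statistic. The common biological coefficient of variation was 0.0836. Genes were called at an adjusted p of at most 0.05, and past both thresholds with a log2 fold change of at least 1 in size too. Total counts per library bound the precision of low genes, which shows in their standard errors.

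Named genes are the 10 with the most counts, the 10 largest rises and 10 largest falls among called genes whose CPM did not overlap (3 fell), members of 5 role lists, hosts of miRNAs and small nucleolar RNAs, and partners of antisense and divergent genes. Others, and those with tRNA genes, were added after their values were seen. The members and lists were chosen with earlier results of these data known. Replicate pairs differed by more than counting noise, so no library was counted as a repeat. Alternatives were RLE factors, library sizes alone, TMM on protein-coding genes, DESeq2 1.42.0, filterByExpr, every gene with at least 1 count, APEX1 left out, a replicate block, a threshold of 0.75, and each library left out. The programs were tested on simulated data.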

Additional observations from a re-analysis of the deposited data

Results flagged for a closer look

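In 118 groups of 4 libraries (59 lncRNAs, 2 groups each), 3 had a library far from the other 3 by Dixon's criterion, which chance alone gives in about 1 in 20 groups. LINC00324 was lowest in siCTRL replicate 1, at 78.2 CPM against 105.0 to 109 in the others. ENSG00000228549 was highest in siCTRL replicate 1, at 499 CPM against 279 to 303. MALAT1 was lowest in siAPEX1 replicate 3, at 6769 CPM against 7218 to 7277.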

How the results depend on the processing

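All numbers of called lncRNAs stayed within 1.5 times those reported, except with library sizes alone, where 14 were higher and 8 lower (6 higher past both thresholds) and the median log2 fold change of the 59 was 0.11. That scaling moved the median of all genes by −0.34, and under it the sign turned for 12 of the 59, all of them to negative and none called: THUMPD3-AS1 (−0.038), FGD5-AS1 (−0.31), LINC-PINT (−0.17), PSMA3-AS1 (−0.17), LINC02582 (−0.32), LINC00662 (−0.042), ENSG00000228549 (−0.084), FTX (−0.0053), SLC12A2-DT (−0.32), ZBED9-AS1 (−0.052), MALAT1 (−0.13) and CASC15 (−0.30). Among the other genes named, TUG1 (−0.30), POLG (−0.21), B4GAT1 (−0.094), MIR4449 (−0.037), MIR365A (−0.33) and MIR193B (−0.13) turned negative. With every gene of at least 1 count the median was 0.35, and the sign turned for 4 of the 59, SLC12A2-DT (−0.084) and CASC15 (−0.063) among them. TUG1 (−0.059) and MIR365A (−0.090), which are not among the 59, turned negative too. With factors from protein-coding genes the sign turned for 1 of the 59. With each library left out in turn, 19 to 24 lncRNAs were higher and 3 to 4 lower (11 to 13 and 3 past both thresholds), and the median ran from 0.34 to 0.49. Among others, the sign turned in some of these fits for CASC15 (−0.19 to 0.18), SLC12A2-DT (−0.12 to 0.17), CYTOR (−0.41 to 0.30), MIR365A (−0.26 to 0.18), TUG1 (−0.15 to 0.22), MIR374B (−0.14 to 0.024) and LIMD1-AS1 (−0.42 to 0.086). Of these, TUG1, MIR374B, CASC15, SLC12A2-DT, CYTOR and MIR365A were called in none of the fits. The difference in the share of counts on the 59, 0.0258 percentage points, ran from −0.0067 to 0.0624, and without MALAT1, an alternative chosen after seeing the data, it was 0.0834. DESeq2 called 573 of all genes higher and 525 lower, against 841 and 818 by edgeR. Of the 59 it called 18 higher and 3 lower, against 22 and 3. The filterByExpr filter left out CYTOR, LUCAT1, LINC01234 and WAC-AS1. The causes were not tested.

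The replicate numbers gave no sign of a pairing of the libraries. The correlation of same-numbered deviations ran from −0.0397 to 0.0013, and that of differently numbered ones from −0.0262 to 0.0274. Values this near 0 in both cannot exclude a pairing. With a replicate block, 22 lncRNAs were higher and 3 lower, 12 and 3 past both thresholds, and the median was 0.43. Among the 59, MALAT1 was called with the block (adjusted p = 0.0485) and GABPB1-AS1 was not (adjusted p = 0.0577).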

Other observations

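Other classes of short RNA in the same libraries moved in both directions. Of 98 miRNA genes tested, 7 rose and 51 fell, with a median log2 fold change of −0.40. Of 51 small nuclear RNA genes, 27 rose and 1 fell, with a median of 0.48. Of 23 genes classed as miscellaneous RNA, 17 rose and 0 fell by edgeR's test at an adjusted p of at most 0.05, with a median of 0.90. For the 59 lncRNAs the median was 0.45, and for 4801 protein-coding genes −0.03.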
